A study of Rattus norvegicus with 12 samples.

Results

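The AP-1 subunits were followed through stretch of cultured heart muscle cells as the genes Fos, Fosb, Fosl1, Fosl2, Jun, Junb, Jund, Atf3 and Maff, chosen by name from the array's probe annotation. Of these 9 genes, 8 had at least 1 probe on the array (9 probes, 17 spots per array), and all 8 were among the 14393 genes tested. Fosb was not analysed here. The cells were ventricular cardiomyocytes of newborn rats, grown for 24 h with 10% serum and kept on flexible membranes coated with collagen. Control cells were left unstretched, and the other groups were pulled rhythmically in both directions to 20% above their resting length for 2 h, 6 h or 24 h. Each group had 3 cultures that the labels call biological replicates, 1 per array, and nothing in the labels used here says that they came from separate cell isolations, so p-values measure the spread between these cultures. The labels name no culture time for the controls, so stretch time and time in culture cannot be told apart.

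AP-1 is a dimer of basic leucine zipper (bZIP) proteins. Fos proteins bind DNA only together with a partner such as a Jun protein, whereas Jun proteins also pair with themselves, and the dimers bind the AP-1 site or the related cyclic AMP response element (CRE). Several members are immediate-early genes, whose transcription is switched on within minutes of a growth factor, serum or mechanical stimulus through MAP kinases and serum response factor. Fos, Fosb and Jun carry strong activation domains, Fosl1 and Fosl2 (the Fra proteins) lack the strong one of Fos, Atf3 is a stress-induced bZIP factor that often represses as a homodimer, and Maff is a small Maf protein with no activation domain of its own.

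Values are processed Cy3 intensity divided by the array's 75th percentile, so 1.00 is the signal at that percentile. Each probe has its own brightness, so no subunit's level is set against another gene's. Sums over marker genes weigh each gene by the brightness of its probe. A difference is given on the log2 scale with its standard error from limma, and a gene was called at a Benjamini-Hochberg adjusted p below 0.05 over all genes tested. All 9 member probes were well above background on all 12 arrays, and 0 of their spots carried an outlier flag. The 75th percentile lay between 1142 and 1671, 64.7% to 70.6% of 58717 spots per array passed the background flag, and no spot (0) reached saturation. The 3 control and 3 of the 2 h arrays shared slide 1 with 2 of the 6 h arrays, while 1 of the 6 h and all 3 of the 24 h arrays were on slide 2. All 10 cardiomyocyte markers were above background on all 12 arrays, and so were all 10 fibroblast, 6 of 8 endothelial and all 6 smooth muscle and pericyte markers. In RNA from a whole culture, fewer cells of a type and less RNA per cell cannot be told apart.

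The 8 subunits did not share 1 time course. At 2 h, 6 of 8 were called higher than control and 0 lower, against 3.09% of all genes called higher and 6.12% lower (9.21% called in either direction). At 6 h the count was 3 of 8 higher and 0 lower, against a background of 5.05% higher, 11.7% lower and 16.7% in either direction. At 24 h it was 5 of 8 higher and 0 lower, against 16.2% higher, 31.8% lower and 47.9% in either direction. The median log2 difference from control over the 8 genes was 0.54 at 2 h, 0.18 at 6 h and 0.34 at 24 h, beside -0.01, -0.05 and -0.08 over all genes. The stretched and control cultures did not overlap for 7 of 8 subunits at 2 h (28.6% of all genes), 5 of 8 at 6 h (39.4%) and 5 of 8 at 24 h (58.9%). An F test over the 4 groups called 7 of 8 subunits, all but Junb (adjusted p = 0.0811), where 52.9% of all genes were called.

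A subunit was classed as early when it was called higher at 2 h than in control and called lower at 24 h than at 2 h, and as sustained when it was called higher than control at 2 h, 6 h and 24 h. By this rule 1 subunit was early (Fos), 3 were sustained (Fosl1, Jund and Atf3) and 4 were neither (Fosl2, Jun, Junb and Maff). The early pattern was met by 1.14% of all genes and the sustained pattern by 1.41%. Among the 4 that were neither, Jun and Maff were called higher at 2 h and at 24 h but not at 6 h.

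**Figure D1:**
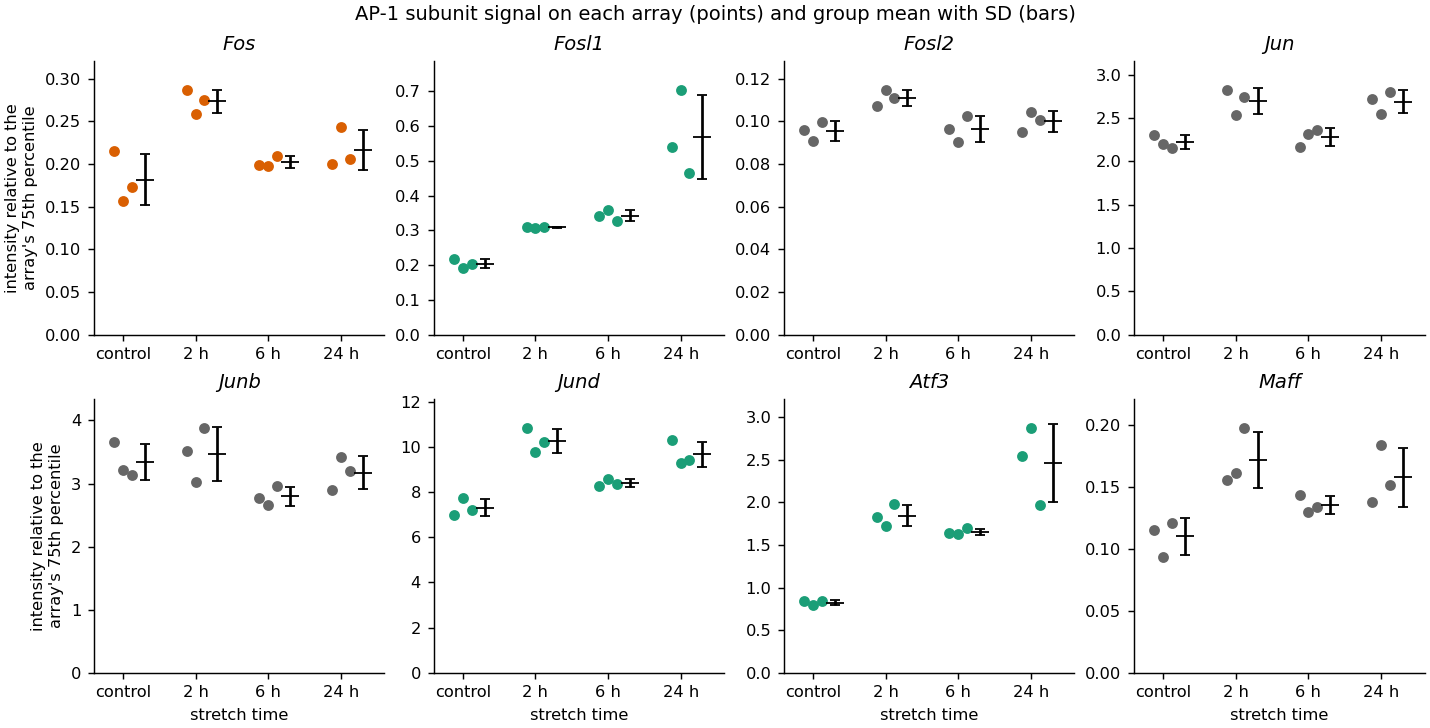
Processed intensity relative to the array's 75th percentile (vertical axes, linear, from 0) for each subunit on each of the 12 arrays, by group (horizontal axes). Points are single arrays and bars are the group mean with SD (n = 3), coloured orange for Fos (early), green for Fosl1, Jund and Atf3 (sustained) and grey for the other 4; Fos is highest at 2 h, and Fosl1 and Atf3 have their highest means at 24 h.

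**Figure D2:**
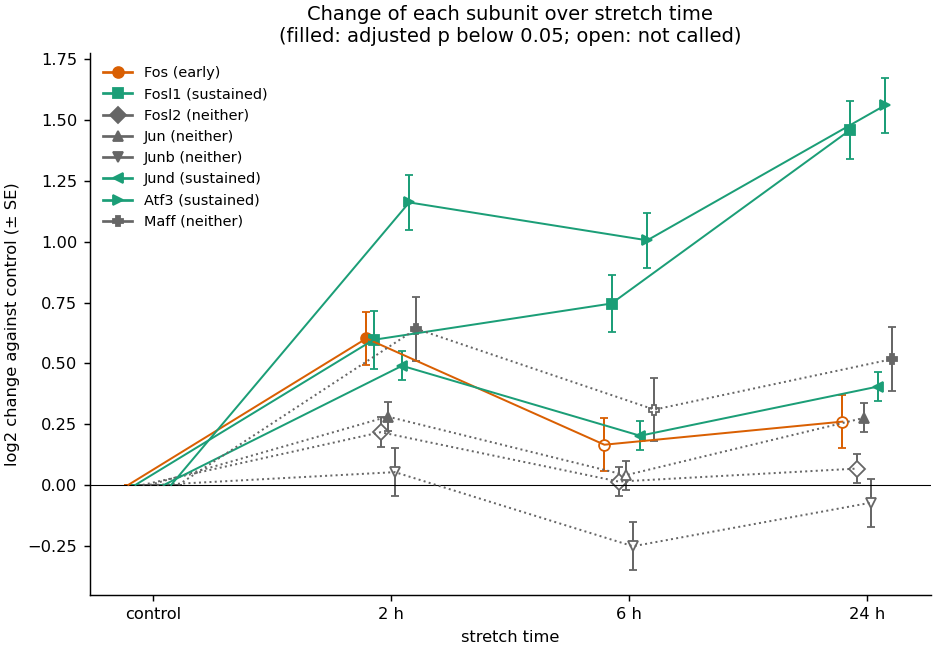
Log2 difference from control with its standard error (vertical axis) at 2 h, 6 h and 24 h (horizontal axis, not to scale) for each subunit, with filled symbols for adjusted p below 0.05. Atf3 and Fosl1 reach 1.56 and 1.46 at 24 h, where the point of Fos, at 0.26, is open.

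Fos, the founding member of its family and the standard immediate-early gene, was measured by a probe at chr6:109561941-109562000 on the plus strand (build rn4, as the array files give it). Its relative intensity was 0.215, 0.157 and 0.173 in the control cultures, 0.286, 0.259 and 0.276 at 2 h, 0.199, 0.198 and 0.210 at 6 h and 0.200, 0.243 and 0.206 at 24 h. The 3 values at 2 h lay above those of every other group, and the control, 6 h and 24 h values overlapped one another. Fos was 0.60 ± 0.11 higher on the log2 scale at 2 h than in control (1.52-fold, adjusted p = 0.00882). At 6 h it was 0.44 ± 0.11 below the 2 h cultures (log2 difference -0.44, adjusted p = 0.0328), and at 24 h the difference from 2 h was -0.34 ± 0.11 (adjusted p = 0.0244). Against control, neither the 6 h difference of 0.17 ± 0.11 (adjusted p = 0.331) nor the 24 h difference of 0.26 ± 0.11 (adjusted p = 0.071) passed.

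The 2 h call of Fos held in all 20 alternative settings. Not all of these could move the value, as other probe choices leave a gene with a single probe unchanged. The control and 2 h arrays shared slide 1, so the slide settings also left the 2 h difference at 0.60. The call of Fos at 24 h against 2 h held in 10 of 19. The difference was -0.19 with array median scaling (adjusted p = 0.188), -0.24 with quantile normalization (adjusted p = 0.117) and -0.08 with scaling to spike-in probes (adjusted p = 0.783). It also lost its call without 2 h replicate 1 or 3 or 24 h replicate 1 or 3, with adjusted p from 0.0556 to 0.0822. Under the same 3 scalings Fos at 24 h was called higher than control, by 0.46, 0.41 and 0.69 (adjusted p = 0.00657, 0.0158 and 0.0034), and likewise with slide as a random block (0.27, adjusted p = 0.0488) and without control replicate 1 (0.39, adjusted p = 0.00617).

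Fosl1, which encodes Fra-1 and is itself known as a transcriptional target of AP-1, was measured at chr1:208099035-208099094 on the plus strand (rn4). The control cultures gave 0.217, 0.192 and 0.204, the 2 h cultures 0.311, 0.306 and 0.308, the 6 h cultures 0.342, 0.358 and 0.327, and the 24 h cultures 0.540, 0.702 and 0.465. No 2 groups overlapped, and the groups stood in the order of stretch time. Fosl1 was called higher than control at each time, by 0.60 ± 0.12 at 2 h (adjusted p = 0.0137), 0.75 ± 0.12 at 6 h (adjusted p = 0.00308) and 1.46 ± 0.12 at 24 h (2.75-fold, adjusted p = 6.83e-06). The step at 24 h against 6 h was 0.71 ± 0.12 (adjusted p = 0.00181), whereas the 6 h against 2 h difference of 0.15 ± 0.12 did not pass (adjusted p = 0.436).

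Fosl1 was 0.86 ± 0.12 higher at 24 h than at 2 h (adjusted p = 2.46e-04), and this call held in all 19 alternatives. Against control at 24 h it was also called in all 19, at 1.56 with slide as a fixed block (adjusted p = 0.00248). For every subunit that block separates slide from stretch time only through the 6 h arrays, 2 on slide 1 and 1 on slide 2. The 24 h cultures were the most spread of its groups, with a mean of 0.569 ± 0.121, against 0.204 ± 0.0124 in control (SD, n = 3 each). At 2 h the call was lost without control replicate 2 (0.55, adjusted p = 0.0526), and with slide 2 alone the 24 h against 6 h difference was 0.78 but not called (adjusted p = 0.203, 1 array at 6 h).

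Fosl2 encodes Fra-2, the other Fra protein. It was read by 2 probes, which carry no genome position in the array files; their sequences are shown because they are the only pair of probes for 1 subunit and they differed.
Fosl2 brighter probe: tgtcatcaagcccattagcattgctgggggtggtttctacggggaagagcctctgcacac
Fosl2 dimmer probe: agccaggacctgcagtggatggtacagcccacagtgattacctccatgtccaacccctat

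The brighter Fosl2 probe gave 0.0959, 0.0905 and 0.0996 in control, 0.107, 0.114 and 0.111 at 2 h, 0.0964, 0.0902 and 0.102 at 6 h and 0.0948, 0.104 and 0.101 at 24 h. Its 2 h values lay above all others, yet the difference from control of 0.22 ± 0.06 just missed the threshold (adjusted p = 0.0515), and neither 6 h (0.01, adjusted p = 0.905) nor 24 h (0.07, adjusted p = 0.39) differed from control by a called amount. At 2 h it was called under array median scaling, quantile normalization and the slide block. The dimmer probe gave 0.0409, 0.0413 and 0.0518 in control, 0.0532, 0.0461 and 0.0446 at 2 h, 0.0368, 0.0400 and 0.0422 at 6 h and 0.0397, 0.0392 and 0.0423 at 24 h. On that probe the groups overlapped at every time against control, with log2 differences of 0.11 at 2 h, -0.16 at 6 h and -0.14 at 24 h, none called (adjusted p = 0.549, 0.285 and 0.279). The 2 probes therefore pointed to opposite sides of control at 6 h and 24 h. The F test called Fosl2 on the brighter probe (adjusted p = 0.0368), and with the dimmer one 6 of 8 subunits were called by it.

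Within the Jun family, Jun, the partner that forms the classical dimer with Fos, was measured at chr5:115359410-115359469 on the minus strand (rn4). It gave 2.31, 2.20 and 2.15 in control, 2.82, 2.53 and 2.75 at 2 h, 2.17, 2.32 and 2.37 at 6 h and 2.73, 2.55 and 2.80 at 24 h. The 2 h and 24 h cultures overlapped each other and lay above the control and 6 h cultures, which also overlapped. Jun was 0.28 ± 0.06 higher at 2 h than in control (adjusted p = 0.0171) and 0.28 ± 0.06 higher at 24 h (adjusted p = 0.00334). The 6 h difference from control was 0.04 ± 0.06 (adjusted p = 0.688).

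The 2 h call of Jun was among the least stable, held in 13 of 20 alternatives and lost without control replicate 2 or 3 or 2 h replicate 1 or 3 (adjusted p from 0.0508 to 0.06). With slide as a fixed block its 24 h difference was 0.20 (adjusted p = 0.261). Jun was 0.24 ± 0.06 below the 2 h cultures at 6 h (log2 difference -0.24, adjusted p = 0.0318) and 0.24 ± 0.06 higher at 24 h than at 6 h (adjusted p = 0.0154).

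Junb, a Jun protein that can oppose Jun at some promoters, was measured by 1 spot per array at chr19:24833225-24833284 on the plus strand (rn4). It gave 3.66, 3.21 and 3.14 in control, 3.51, 3.02 and 3.87 at 2 h, 2.77, 2.66 and 2.96 at 6 h and 2.90, 3.41 and 3.20 at 24 h. The 6 h cultures lay below the control and 2 h cultures, and the other groups overlapped. No difference of Junb from control passed, at 0.05 ± 0.10 at 2 h (adjusted p = 0.786), -0.25 ± 0.10 at 6 h (adjusted p = 0.105) and -0.07 ± 0.10 at 24 h (adjusted p = 0.563). The signs at 6 h and 24 h turned with the scaling: spike-in scaling gave 0.23 at 6 h and 0.36 at 24 h, and array median scaling 0.12 at 24 h.

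Jund, the Jun protein known for steady expression in resting cells, was measured at chr16:19239707-19239766 on the minus strand (rn4). It gave 6.98, 7.74 and 7.22 in control, 10.8, 9.77 and 10.2 at 2 h, 8.25, 8.60 and 8.36 at 6 h and 10.3, 9.28 and 9.44 at 24 h. Every stretched culture lay above every control culture, and the 2 h and 24 h cultures overlapped above those at 6 h. Jund was 0.49 ± 0.06 higher at 2 h (1.40-fold, adjusted p = 0.0024), 0.20 ± 0.06 higher at 6 h (adjusted p = 0.0416) and 0.40 ± 0.06 higher at 24 h (1.32-fold, adjusted p = 3.21e-04) than in control.

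The 6 h call of Jund, which its place among the sustained subunits needs, held in 9 of 20 alternatives, and its 2 h call in 19 of 20 (lost with spike-in scaling, 0.66, adjusted p = 0.057). The 6 h call was lost without control replicate 1 or 3 and without any 1 of the 6 h replicates, with differences from 0.17 to 0.22 and adjusted p from 0.0896 to 0.112, and on slide 1 alone (0.21, adjusted p = 0.105). The 24 h call held in all 19, at 0.42 with slide as a fixed block (adjusted p = 0.0375).

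The promoters of Jund and Junb are printed because Jund was called at all 3 times and Junb at none, and those of Maff and Fosl1 because both genes were called at 2 h and 24 h while their promoters differ in 1 searched element. Each runs from 250 bases before to 50 bases after the annotated start in RefSeq for build GRCr8, 5′ to 3′ on the strand of the gene, with matches to the CRE letters TGACGTCA in capitals. Of the 9 members, 6 matched an entry of the promoter table (Fosb, Fosl1, Fosl2, Junb, Jund and Maff). Jund lies at chr16:18769722-18770021 on the minus strand, Maff at chr7:112792537-112792836, Fosl1 at chr1:212183635-212183934 and Junb at chr19:40080876-40081175, these 3 on the plus strand.
Jund: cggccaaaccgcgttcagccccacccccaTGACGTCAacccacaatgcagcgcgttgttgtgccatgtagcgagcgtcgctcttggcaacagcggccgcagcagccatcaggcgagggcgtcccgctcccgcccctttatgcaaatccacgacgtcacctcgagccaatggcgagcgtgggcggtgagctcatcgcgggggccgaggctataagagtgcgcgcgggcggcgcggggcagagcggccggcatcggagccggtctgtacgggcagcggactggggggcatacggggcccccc
Maff: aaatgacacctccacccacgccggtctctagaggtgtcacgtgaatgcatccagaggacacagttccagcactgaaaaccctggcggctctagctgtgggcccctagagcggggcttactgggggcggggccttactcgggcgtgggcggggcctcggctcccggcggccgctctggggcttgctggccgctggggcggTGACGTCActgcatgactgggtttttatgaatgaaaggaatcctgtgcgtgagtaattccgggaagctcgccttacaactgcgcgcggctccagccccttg
Fosl1: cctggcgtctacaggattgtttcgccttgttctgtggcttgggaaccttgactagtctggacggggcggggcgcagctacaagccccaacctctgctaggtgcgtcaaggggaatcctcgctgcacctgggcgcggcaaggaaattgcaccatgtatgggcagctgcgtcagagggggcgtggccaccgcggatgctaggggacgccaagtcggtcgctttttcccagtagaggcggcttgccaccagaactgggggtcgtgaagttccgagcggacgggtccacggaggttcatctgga
Junb: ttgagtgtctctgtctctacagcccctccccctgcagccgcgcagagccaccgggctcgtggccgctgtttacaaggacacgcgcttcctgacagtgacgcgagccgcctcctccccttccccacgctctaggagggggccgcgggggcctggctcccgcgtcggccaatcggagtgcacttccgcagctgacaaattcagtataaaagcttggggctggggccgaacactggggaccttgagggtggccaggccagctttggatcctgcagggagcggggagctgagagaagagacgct

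Both strands were searched. The CRE was found in the windows of Jund, at -221 to -214 from the start, and of Maff, at -51 to -44, and not in those of Fosb, Fosl1, Fosl2 and Junb; 1.83% of 33469 rat promoters of the same length held it. None of the 6 windows held the AP-1 site TGACTCA (4.63% of promoters), the Jun/ATF site TGACATCA (4.34%) or the CArG box bound by serum response factor (1.64%). The GC box GGGCGG, held by 33.1% of promoters, occurred in Fosl1, Fosl2, Jund and Maff. The TATA box TATAAA (14.2%) lay at -49 to -44 in Junb and, on the opposite strand, at -180 to -175 in Fosb, and the CAAT box CCAAT (37.5%) at -85 to -81 in Junb and -86 to -82 in Jund. No 2 of these matches overlapped. A match describes letters only.

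Atf3, induced by many kinds of cell stress, was measured at chr13:107191691-107191749 on the minus strand (rn4). It gave 0.838, 0.789 and 0.843 in control, 1.83, 1.72 and 1.98 at 2 h, 1.64, 1.62 and 1.70 at 6 h and 2.54, 2.87 and 1.97 at 24 h. Every stretched culture was above every control culture, the 6 h cultures lay below those at 2 h, and the 24 h cultures overlapped with those at 2 h at their low end. Atf3 was 1.16 ± 0.11 higher at 2 h (2.24-fold, adjusted p = 7.71e-04), 1.01 ± 0.11 higher at 6 h (2.01-fold, adjusted p = 8.61e-04) and 1.56 ± 0.11 higher at 24 h (2.95-fold, adjusted p = 3.14e-06) than in control. Ordered by rise against control among 14393 genes, it ranked 3 at 2 h, 8 at 6 h and 12 at 24 h.

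All 3 calls of Atf3 against control held in every alternative run. The 6 h against 2 h difference of -0.16 ± 0.11 did not pass (adjusted p = 0.388), and the 24 h against 6 h step of 0.56 ± 0.11 did (adjusted p = 0.00529). Between 24 h and 2 h it was 0.40 ± 0.11 higher at 24 h (adjusted p = 0.0138), a call lost with slide as a fixed block (0.34, adjusted p = 0.32).

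Maff, which pairs with larger bZIP factors of the Nrf and Bach groups, was measured at chr7:117339011-117339070 on the plus strand (rn4). It gave 0.115, 0.0933 and 0.121 in control, 0.155, 0.161 and 0.197 at 2 h, 0.143, 0.129 and 0.134 at 6 h and 0.137, 0.184 and 0.151 at 24 h. Every stretched culture lay above every control culture, and the 24 h cultures overlapped with both other stretch times. Maff was 0.64 ± 0.13 higher at 2 h (1.56-fold, adjusted p = 0.0147) and 0.52 ± 0.13 higher at 24 h (1.43-fold, adjusted p = 0.00779), while the 6 h difference of 0.31 ± 0.13 did not pass (adjusted p = 0.13). The 2 h call was lost with normexp (0.37, adjusted p = 0.072), with only these 2 groups fitted (0.64, adjusted p = 0.0505) and without control replicate 2 (0.53, adjusted p = 0.0516). With slide as a fixed block the 24 h difference was 0.54 (adjusted p = 0.172).

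Compared between stretch times, 3 of 8 subunits (Fos, Jun and Jund) were called lower at 6 h than at 2 h under the main scaling, whereas spike-in scaling turned Jun and Jund to 0.07 and 0.02 and gave -0.13 for Fos (adjusted p = 0.618), none called. At 6 h against 2 h, 6.78% of all genes were called lower, 3.69% higher and 10.5% in either direction. The Fos call held in 6 of 20 alternatives and was also lost with array median scaling (-0.38, adjusted p = 0.06) and quantile normalization (-0.38, adjusted p = 0.0592). All 3 calls were lost without 2 h replicate 1 or 6 h replicate 1 or 3, those of Fos and Jun also without 2 h replicate 3 or 6 h replicate 2 and that of Fos without 2 h replicate 2 (adjusted p from 0.0529 to 0.115 over Fos and Jun). The Jund difference of -0.29 ± 0.06 (adjusted p = 0.0169) was -0.25 to -0.28 in these 3 settings without 1 array (adjusted p from 0.0543 to 0.0681). On slide 1 alone 0 of 8 were called (1.66% of all genes). Higher at 24 h than at 6 h were 4 of 8 subunits (Fosl1, Jun, Jund and Atf3) and 0 were lower, where 9.56% of all genes were called higher and 25% in either direction. Without 6 h replicate 1 or without 24 h replicate 3 the count was 2 (17.7% and 18.6% of all genes), as Jun and Jund lost their calls. Jund, at 0.20 ± 0.06 (adjusted p = 0.0306), also lost its call without 6 h replicate 2 or 3 or 24 h replicate 1 (adjusted p from 0.0583 to 0.0999). Fosl1 and Atf3 were called higher and Fos lower at 24 h than at 2 h, where 18% of all genes were called higher, 30.2% lower and 48.2% in either direction. Groups did not overlap for 8 of 8 subunits at 6 h against 2 h (34.6% of all genes), 4 of 8 at 24 h against 6 h (45.7%) and 3 of 8 at 24 h against 2 h (57.6%).

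Ratios of 2 subunits on the same array do not depend on any single factor by which the array is scaled, and Fosl1 and Fos separated in them after 2 h. Each pair used here sets a subunit classed above as sustained against one that was not, on the same arrays. The ratios and their tests are therefore no separate support for those classes. Fosl1 over Fos, on the log2 scale and relative to the control mean, was -0.06, 0.06 and -0.02 at 2 h, 0.60, 0.68 and 0.46 at 6 h and 1.25, 1.35 and 0.99 at 24 h, against -0.17, 0.11 and 0.06 in control. The 2 h and control cultures overlapped and all 24 h cultures lay above them. The ratio differed by 1.20 ± 0.11 at 24 h against 2 h, by 1.20 ± 0.14 at 24 h against control and by -0.01 ± 0.09 at 2 h against control. Two-sided exact permutation tests gave p = 0.1, 0.1 and 1, and 0.1 is the smallest that 3 against 3 arrays allow (0.129, 0.129 and 1 after adjustment over 9 such tests).

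Atf3 over Fos was 0.56 ± 0.13 higher at 2 h than in control and 1.30 ± 0.17 higher at 24 h, and Jund over Junb 0.44 ± 0.14 and 0.48 ± 0.15 higher, each with an exact permutation p of 0.1. Jund over Junb differed by 0.04 ± 0.15 at 24 h against 2 h (exact permutation p = 0.9). A ratio shows unequal change of its 2 genes and not which of them moved.

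**Figure D3:**
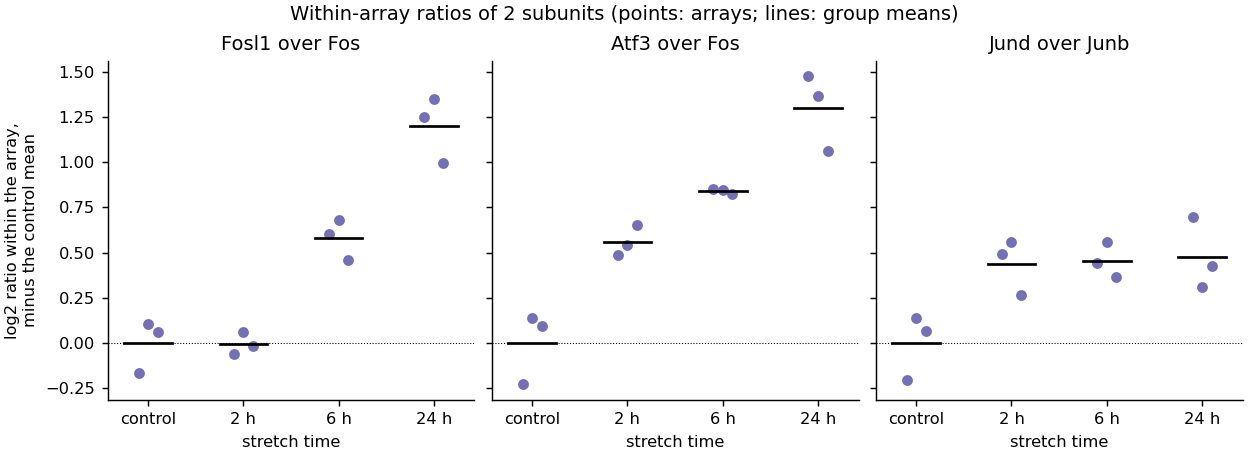
Log2 ratio of 2 subunits on the same array minus the control mean (vertical axis) by group (horizontal axes), with points for arrays and lines for group means. Fosl1 over Fos lies near 0 in control and at 2 h and between 0.99 and 1.35 at 24 h, while Jund over Junb has similar means at all 3 stretch times.

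**Figure D4:**
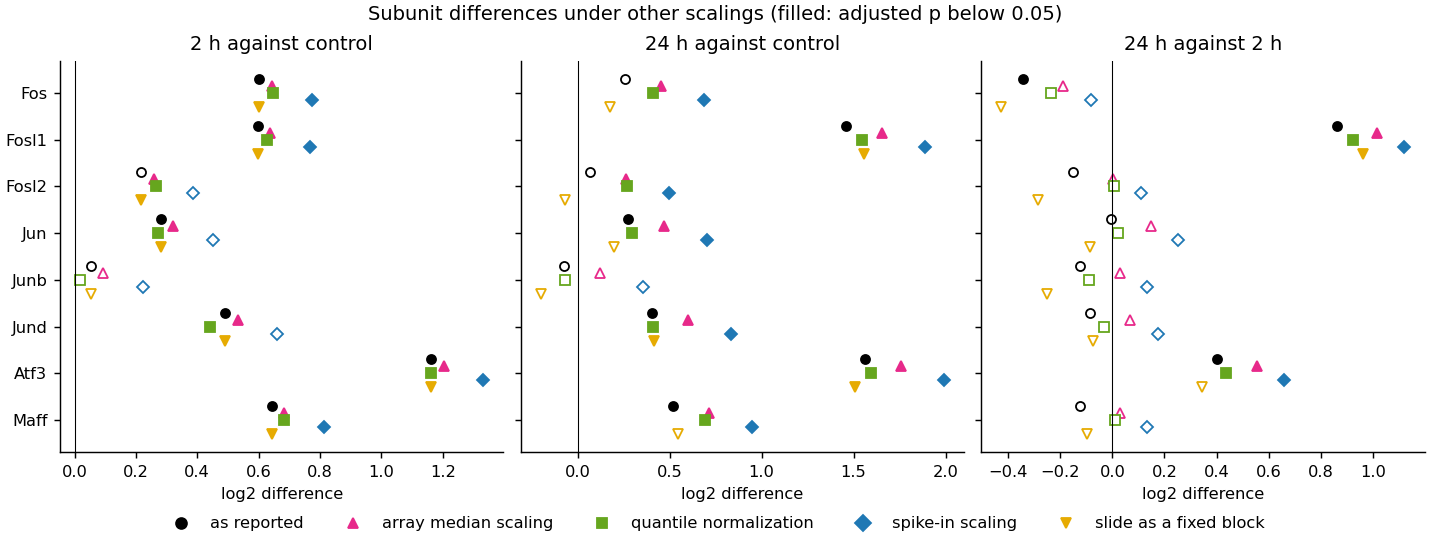
Log2 difference of each subunit (vertical axis) under the main 75th percentile scaling (black) and 4 other settings (colours), for 2 h against control, 24 h against control and 24 h against 2 h, filled where adjusted p is below 0.05. Fosl1 is filled in all settings shown, while Fos at 24 h against 2 h is filled only in the main one and Junb changes sign at 24 h.

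Over the 12 arrays, the genes with the profile most like that of Fos were Bcor, a BCL6 corepressor, Gadd45b, a stress-inducible gene, and Top1, DNA topoisomerase I, with Pearson correlations of 0.936, 0.935 and 0.902. The profile of Fosl1 was closest to those of Srxn1, which repairs oxidised peroxiredoxins, Rcan1, a calcineurin inhibitor, and Myc, at 0.989, 0.987 and 0.985. That of Atf3 was closest to Otud1, a deubiquitinase, Arid5a, an RNA-binding protein, and Hbegf, an EGF receptor ligand, at 0.987, 0.98 and 0.98. Among subunits, Atf3 and Fosl1 correlated at 0.923, Jun and Jund at 0.879, Fos and Maff at 0.83 and Fos and Fosl1 at 0.338. These correlations describe the same 12 arrays, with their shared group means and scaling, and have no test.

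Other bZIP factors that can pair with AP-1 proteins were followed as a list of 31 genes, of which 25 were tested. At 2 h, 3 were called higher and 0 lower, at 6 h 6 and 0, and at 24 h 13 and 6, with medians of 0.11, 0.07 and 0.20. Of all genes, 3.09% were called higher and 6.12% lower at 2 h, 5.05% and 11.7% at 6 h, and 16.2% and 31.8% at 24 h. Mafk, a small Maf protein like Maff, was called higher at all 3 times, at 0.424 ± 0.0162 in relative intensity at 2 h, 0.353 ± 0.027 at 6 h and 0.411 ± 0.0464 at 24 h, against 0.276 ± 0.0042 in control (SD, n = 3 each). Nfil3, a bZIP repressor, was also called at all 3 times, with log2 differences of 0.51, 0.31 and 0.24 (SE 0.04 each). The largest called differences at 24 h in the list were falls of Batf (-0.98 ± 0.18) and Cebpa (-0.76 ± 0.08), both known from immune cells among others, and a rise of Creb5 (0.72 ± 0.15), a factor related to Atf2; only 1 of the 3 Batf arrays at 24 h was well above background.

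**Figure D5:**
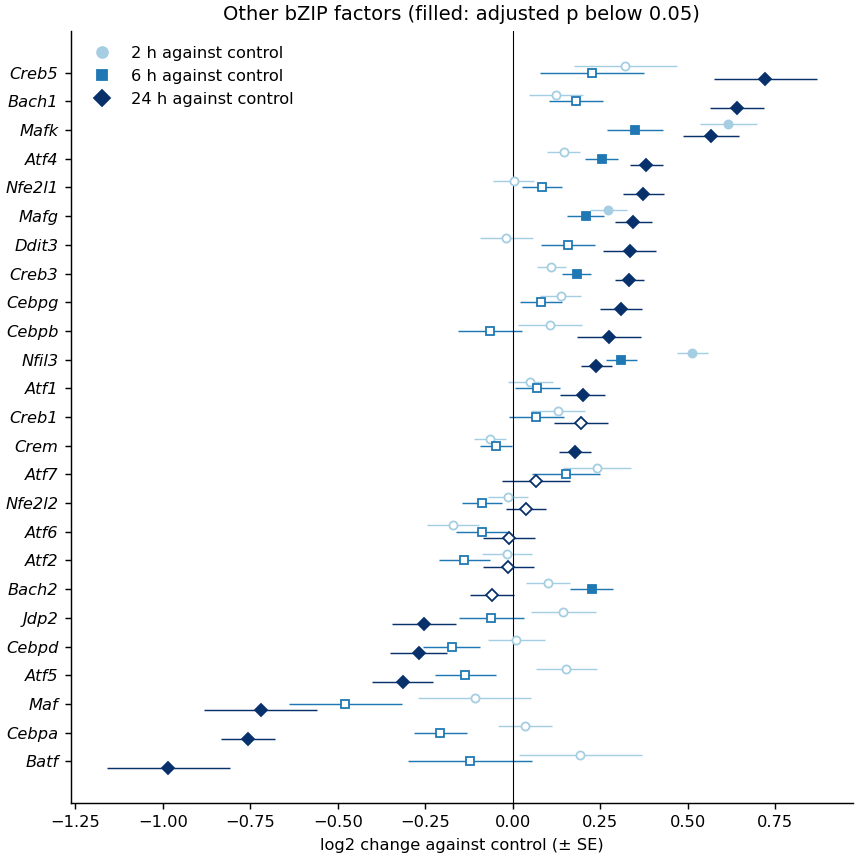
Log2 difference from control with its standard error (horizontal axis) at 2 h, 6 h and 24 h for the 25 other bZIP factors tested (vertical axis, ordered by the 24 h value), filled where adjusted p is below 0.05. At 24 h 13 are filled above 0 and 6 below it.

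Of 50 genes reported elsewhere as AP-1 targets 41 were tested, and 9 were called higher and 2 lower at 2 h, 7 and 6 at 6 h and 19 and 13 at 24 h, with medians of 0.10, -0.06 and 0.14. Over all genes, 3.09% were called higher and 6.12% lower at 2 h, 5.05% and 11.7% at 6 h, and 16.2% and 31.8% at 24 h. At 2 h the largest called differences were those of Hbegf (0.79 ± 0.05), Tnfrsf12a, the TWEAK receptor (0.75 ± 0.09), and Hmox1, haem oxygenase (0.73 ± 0.13). At 24 h they were falls of the cytokine Tnf, to 0.0291 ± 0.0042 at 24 h, against 0.156 ± 0.0142 in control (SD, n = 3 each), and of Il1b (-1.75 ± 0.13). Mmp9, a matrix metalloproteinase, was not well above background on any 24 h array. With dim values raised to the lowest signal well above background on their array, it was 3.03-fold lower there than in control. The control signal was 0.0193 ± 0.0016 (SD, n = 3). The fit without raised values gave -1.87 ± 0.16 (adjusted p = 1.11e-05). Summed over the 6 tested macrophage markers, relative intensity was 5.16 to 6.14 at 24 h, against 15.2 to 15.3 in control, and all 6 were called lower. Lyz2, at up to 16.8 on an array, made up most of this sum, and no other marker in it exceeded 0.834. Called lower at 24 h were also 8 of 10 cardiomyocyte markers (sum 498 to 548 at 24 h, against 623 to 673 in control). So were 8 of 10 fibroblast markers (123 to 142, against 170 to 182). Of the endothelial markers, 6 of 8 were called lower (2.30 to 2.63, against 3.15 to 3.34) and 1 higher. Most of that sum came from Kdr, at up to 2.62 on an array, and no other endothelial marker exceeded 0.378. Of the smooth muscle and pericyte markers, 3 of 6 were called lower and 1, Cnn1, higher (0.60 ± 0.09). The sum of these 6 overlapped between 24 h and control (12.044 to 12.992, against 12.24 to 13.636). Cspg4, at up to 11.4 on an array, made up most of it, and no other marker in it exceeded 1.34. Among the cardiomyocyte markers, 1 was called higher at 24 h. The remaining 2 macrophage markers, Cd163 and Mrc1, were above background on 0 and 2 of 12 arrays, and the part of any of these cell types in the results was not tested.

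Among kinases and factors upstream of AP-1, 33 of 37 listed genes were tested. Of these, 2 were called higher and 2 lower at 2 h, 2 and 4 at 6 h, and 3 and 6 at 24 h, where 9.21%, 16.7% and 47.9% of all genes were called in either direction. Srf, serum response factor, was higher at 2 h by 0.38 ± 0.05 (adjusted p = 0.0024). Mef2c, a muscle transcription factor that also drives Jun, was lower (-0.26 ± 0.06, adjusted p = 0.0191). Mapk8, which encodes the kinase JNK1, was not well above background on any 2 h array. Its fitted difference from control there was -0.68 ± 0.16 (adjusted p = 0.0285), at a control signal of 0.0162 ± 0.0022 (SD, n = 3). Of the kinases that activate p38, Map2k6 was lower at 6 h and 24 h, by log2 differences of -0.76 ± 0.14 and -1.39 ± 0.14, and Map2k3 was higher at 24 h, by 0.76 ± 0.07 (adjusted p = 9.94e-06). Mapk11 was lower at 24 h (-0.82 ± 0.21, adjusted p = 0.00963), where 2 of its arrays were well above background. Rps6ka5 was lower at 6 h (-0.49 ± 0.06, adjusted p = 0.00128). Among 20 tested genes of AP-1 turnover and coregulation (23 listed), 1 was higher and 0 lower at 2 h, 1 and 1 at 6 h and 4 and 1 at 24 h, against the same shares of all genes. Elavl1, an RNA-binding protein that stabilises messages with AU-rich elements, was called higher at each time, by 0.19, 0.20 and 0.26 (SE 0.05 each). In the same list Zfp36l2 was called lower at 6 h (-0.21 ± 0.06) and 24 h (-0.33 ± 0.06). Zfp36l1 was called higher at 24 h (0.29 ± 0.07).

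Of 23 tested immediate-early genes outside AP-1 (25 listed), 10 were called higher and 1 lower at 2 h, 7 and 3 at 6 h and 15 and 4 at 24 h, with medians of 0.11, 0.11 and 0.34. The shares of all genes called higher and lower were 3.09% and 6.12% at 2 h, 5.05% and 11.7% at 6 h, and 16.2% and 31.8% at 24 h. Myc was higher at each time, with a relative intensity of 2.30 ± 0.031 at 2 h, 2.36 ± 0.0866 at 6 h and 3.49 ± 0.325 at 24 h, against 1.66 ± 0.159 in control (SD, n = 3 each). Nr4a3, an orphan nuclear receptor, was higher by 0.63 ± 0.09 at 2 h and 0.92 ± 0.09 at 24 h. Its relative intensity at 6 h was 0.0368 ± 0.0034, against 0.0333 ± 0.0016 in control (SD, n = 3 each). Klf2 and Egr2 were lower than control at 6 h, by log2 differences of -0.49 ± 0.08 and -0.44 ± 0.09 (adjusted p = 0.0029 and 0.0103). These lists are read by their counts and medians beside the share of all genes called at each time and have no test of their own.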

How the data were processed

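Total RNA of 12 cultures was labelled with Cy3 and read on Agilent rat arrays, 3 arrays per group. The intensity used is the scanner software's processed one, linear, background-subtracted and detrended within each array but unscaled between arrays, per the file headers. Per the file headers, flags of single spots are other values (0 or 1). Feature Extraction was version 11.0.1.1 per the file headers and 10.7.3.1 per the submitters' processing notes. The deposited series matrix, a linear intensity of 28902 probes whose scaling, centring and log2 medians (7.02 to 7.14) are not explained in the labels, served only as an alternative; its ranks followed the mean signal with a rank correlation of at least 0.9987.

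From the deposited intensity, outlier-flagged spots were dropped (224 to 359 per array), spots of a probe were averaged as log2 values and the array's 75th percentile was subtracted. Probes well above background on all 3 arrays of a group were kept (19017 of 30367), and each of 14393 genes was represented by its brightest kept probe. Names came from accession (18005 probes), symbol (2668), unique synonym (547) or the file (4963), and 4184 probes had none. limma 3.58.1 in R 4.3.3, with jsonlite 2.0.0, the package data.table (version 1.17.8) and statmod 1.5.0, fitted 1 mean per group over all 12 arrays (lmFit, eBayes), with two-sided tests, Benjamini-Hochberg adjustment over all genes and calls at adjusted p below 0.05. The code was tested on simulated data. The number of arrays limits the precision. Slide coincides with scan session in these files, and all 24 h arrays shared slide 2. Only the 6 h arrays lay on both slides, so a difference of 24 h from control or 2 h cannot be fully told apart from slide.

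The members and gene lists were chosen with earlier results of these data known, and 1 gene of the bZIP list is not reported here and not counted in it. Every member was named; of each gene list, up to 3 called genes with the largest change at each time against control; and for Fos, Fosl1 and Atf3 the 3 genes with the most similar profile among those called by the F test. Alternatives were array median scaling, quantile normalization, spike-in scaling, normexp, no filter, other probe choices, only the groups compared, slide as a block, single slides, a replicate block, the series matrix, a stricter threshold and leaving out each replicate. The other Fosl2 probe and the alternatives for the F test were added after seeing the data. Promoter sequences are RefSeq's for GRCr8.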

Additional observations from a re-analysis of the deposited data

Results flagged for a closer look

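The difference from control changed between stretch times for 5 subunits, tested as the contrast between the times themselves in the limma fit. At 6 h against 2 h, the log2 difference was -0.44 for Fos, -0.24 for Jun and -0.29 for Jund, each called lower. At 24 h against 6 h it was 0.71 for Fosl1, 0.56 for Atf3, 0.24 for Jun and 0.20 for Jund, each called higher. It was 0.86 for Fosl1 and 0.40 for Atf3, called higher, and -0.34 for Fos, called lower, at 24 h against 2 h. With slide as a fixed block, the calls that held among these were those of Fosl1 at 24 h against 6 h (0.78, adjusted p = 0.0255) and against 2 h (0.96, adjusted p = 0.0236). Groups of 3 were not examined for single outlying arrays.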

How the results depend on the processing

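Fosl1 and Atf3 at 24 h against control kept their calls under every alternative, from 1.18 to 1.89 and from 1.44 to 1.99 on the log2 scale. Over single members, 790 values kept direction and side of the threshold, 93 kept direction but lost a call, 20 gained one and 41 changed sign, none of the 41 called. Some of the 790 could not differ, as other probe choices leave the difference of every subunit but Fosl2 unchanged. Among the 41, Jun and Jund at 6 h against 2 h with spike-in scaling also lost a call. The cause was not tested. The count of called subunits moved by over 1.5 times in these settings. Brackets give the share of all genes called in either direction in the same setting. With slide as a fixed block the count was 3 at 24 h against control (14.2%), 0 at 6 h against 2 h (4.17%), 1 at 24 h against 6 h (7.64%) and 1 at 24 h against 2 h (12.5%). With spike-in scaling it was 7 at 6 h against control (47.6%), 0 at 6 h against 2 h (4.67%) and 1 at 24 h against 6 h (7.2%). At an adjusted p below 0.01 it was 3 at 2 h against control (2.55%), 0 at 6 h against 2 h (1.56%), 2 at 24 h against 6 h (12.7%) and 1 at 24 h against 2 h (31.7%). At 6 h against 2 h it was also 1 with array median scaling (10.5%), 1 with only the 2 groups fitted (2.52%), 0 without the filter (2%) and 0 on slide 1 alone (1.66%). Slide 2 alone also moved the count at 24 h against 6 h, with 1 array at 6 h assumed to vary like the others. Leaving out 1 array gave 3 to 6 called at 2 h against control (4.65% to 7.13%), 2 to 3 at 6 h (8.3% to 14.5%) and 5 to 6 at 24 h (40.1% to 45.1%). Between stretch times it gave 0 to 3 at 6 h against 2 h (2.41% to 9.37%), 2 to 4 at 24 h against 6 h (16.7% to 21.9%) and 2 to 3 at 24 h against 2 h (40.1% to 44.9%). The 3 at 2 h came without control replicate 2 (4.65%). Spike-in scaling moved the median of all genes against control to 0.16, 0.43 and 0.35 at 2 h, 6 h and 24 h, and array median scaling moved it to 0.11 at 24 h.

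Signs turned mostly for small differences. Against control at 2 h, Junb was -0.031 without 2 h replicate 3. Against control at 6 h, Fosl2 was -0.11 with normexp, -0.031 with the slide block, -0.031 on slide 1 alone, -0.076 as the mean of probes, -0.16 on the other probe, -0.023 without control replicate 2 and -0.031 without 6 h replicate 3 (range leaving out 1 array -0.031 to 0.060), Jun was -0.033 in the series matrix and Junb 0.23 with spike-in scaling. Against control at 24 h, Fosl2 was -0.13 with normexp, -0.067 with the slide block, -0.035 as the mean of probes and -0.14 on the other probe, and Junb was 0.12 with array median and 0.36 with spike-in scaling. At 6 h against 2 h, spike-in scaling gave 0.16 for Atf3, 0.11 for Fosl2, 0.071 for Jun, 0.0067 for Junb and 0.024 for Jund. Between 24 h and 6 h, Fosl2 was -0.016 with normexp, -0.036 with the slide block and -0.036 on slide 2 alone. Between 24 h and 2 h, array median scaling gave 0.0040 for Fosl2, 0.15 for Jun, 0.028 for Junb, 0.068 for Jund and 0.029 for Maff. For the same comparison quantile normalization gave 0.0045 for Fosl2, 0.021 for Jun and 0.0088 for Maff, and spike-in scaling 0.11 for Fosl2, 0.25 for Jun, 0.13 for Junb, 0.17 for Jund and 0.13 for Maff. There too, Jun was 0.027 without 2 h replicate 1, 0.0082 without 2 h replicate 3 and 0.034 without 24 h replicate 2 (range leaving out 1 array -0.051 to 0.034), and Maff was 9.19e-04 in the series matrix.

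Equal replicate numbers did not mark pairs: over 18 pairs of equal number, deviations from the group means correlated between -0.107 and 0.104. With a replicate block the called counts were 6, 2 and 5 against control at 2 h, 6 h and 24 h, 2 at 6 h against 2 h, 3 at 24 h against 6 h and 3 at 24 h against 2 h, and 7 by the F test. The shares of all genes called with that block were, in the same order, 7.18%, 15%, 46.2%, 7.93%, 23.2%, 46.6% and 49.6%.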
